A study of Homo sapiens with 4 samples.

Results

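The potassium channel genes of the KCN families were examined for binding of NRSF/REST in H295R cells. Their members are the 95 protein-coding genes whose symbol begins with KCN, of 20163 protein-coding genes in GENCODE release 44 mapped to hg19. Membership thus rests on the names and not on a measured value. The families themselves were chosen with earlier results of these data known. A site was assigned to a gene when it lay in the gene or within 10 kb of its boundaries. By this rule KCN genes had 63 of the 5323 sites called at basal SF-1 dosage and 61 of the 5059 called at increased dosage, and no site fell to more than 1 KCN gene.

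H295R/TR SF-1 is a clone of a human adrenocortical carcinoma line in which doxycycline switches on additional SF-1, a nuclear receptor of steroid-producing tissues. Chromatin was precipitated with an anti NRSF/REST antibody from cells without doxycycline (basal dosage, 1 library) and from cells given doxycycline for 3 days (increased dosage, 1 library). The sample labels give the doxycycline concentration as 1 mg/mL, and the methods of the study give it in a smaller unit. With 1 library per dosage there was no replicate check and no test between dosages, and each difference describes these libraries only. A list of sites called separately in each library holds the chromosome, start, end, an order number and a score of 1000 for every site. It holds no read counts, so the depth behind a site is unknown and width in base pairs is the only measure of size used. Intervals given with percentages are 95% Wilson intervals and cover the counting of sites or genes alone.

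NRSF/REST is a zinc finger repressor that binds a long DNA element made of a left and a right part and silences genes of neurons in other cell types. Potassium channels set the resting potential of cells and end action potentials, and many of them work chiefly in neurons, heart or secretory cells. In the adrenal cortex, potassium conductance keeps the cells hyperpolarised and takes part in the control of aldosterone release. A channel is built from pore subunits, which may be joined by silent modifiers and by auxiliary subunits.

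The consensus searched here was CTGTCC, any 2 bases, then GGTGCTG, in either orientation, and up to 2 of its 13 fixed bases could differ. The 12 sequences below are among the closest matches at KCN genes, 1 per gene, in sites called at both dosages, and they are shown to place the element at each gene. Each runs 5′ to 3′ in the direction of the consensus, from the hg19 genome, with 4 bases before and 2 bases after it, and the capitals mark the fixed bases of both parts.
KCNH4 (chr17:40332301-40332321, + strand, intron 1): gtggCTGTCCaaGGTGCTGaa
KCNH2 (chr7:150681160-150681180, + strand, upstream): gtctCTGTCCaaGGTGCTGaa
KCNT1 (chr9:138606625-138606645, + strand, intron 2): ggagCTGTCCgcGGTGCTGac
KCNN4 (chr19:44293406-44293426, + strand, upstream): ggatCTGTCCttGGTGCTGac
KCNK12 (chr2:47798605-47798625, - strand, upstream): tgcgCTGTCCgcGGTGCTGac
KCNAB2 (chr1:6112666-6112686, - strand, intron 2): agcgCTGTCCgaGGTGCTGaa
KCNA2 (chr1:111085511-111085531, + strand, intron): agctCTGTCCttGGTGCTGag
KCNIP4 (chr4:21478570-21478590, + strand, intron 1): ggcaCTGTCCtaGGTGCTGaa
KCNH1 (chr1:210913149-210913169, - strand, intron 10): gatgCTGTCCtgGGTGCTGat
KCNC4 (chr1:110761549-110761569, + strand, intron 1): cctgCTGTCCagGGTGCTGag
KCNQ5 (chr6:73831641-73831661, - strand, intron 8): atctCTGTCCtaGGTGCTGac
KCNJ6 (chr21:39286662-39286682, + strand, intron 1): ggctCTGGCCttGGTGCTGaa
The first 11 matched every fixed base, and KCNJ6 differed by T4G, where position 1 is the consensus' first base. Intron numbers are those of the canonical transcript, and the intron of KCNA2 belongs to another transcript of that gene.

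Sites of NRSF/REST were found at 38 of 95 KCN genes at the basal dosage (40%, 30.7 to 50.1%), where 13.9% of all protein-coding genes had one. At the increased dosage they were again found at 38 KCN genes, beside 13.6% of all protein-coding genes. Both lists held a site at 36 KCN genes (37.9%, 28.8 to 47.9%), against 10.5% of all protein-coding genes. Taking either list, 40 KCN genes had a site and 55 had none, and the share of 42.1% stood beside 17% of all protein-coding genes. A site shared between the dosages and holding the consensus was present at 26 KCN genes (27.4%, 19.4 to 37.1%), with 6.56% over all protein-coding genes.

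KCN genes are long, with a median of 43.5 kb against 27.2 kb for the other protein-coding genes, and longer genes had a site more often in both sets. Other genes given the length distribution of the KCN genes, in 5 classes, had a site at both dosages in 15.9% of cases, which leaves the KCN share 2.38 times as high. The ratio was 1.95 at the basal dosage, 2.01 at the increased dosage, 1.72 for a site in either list and 2.74 for shared sites with the consensus. In pairs of gene and site per Mb of gene and flanks, KCN genes had 4.16 at the basal and 4.03 at the increased dosage. The other genes had 2.14 and 2.06. Where genes with their flanks overlap, sites and bases were counted once for each gene. No test of the KCN list against other lists was made.

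**Figure D1:**
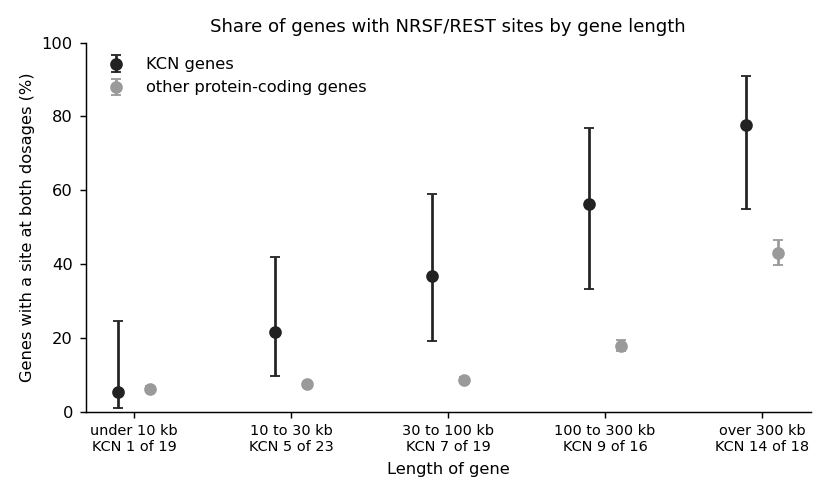
Percentage of genes with an NRSF/REST site at both dosages (vertical axis) in 5 classes of gene length (horizontal axis), for KCN genes (black) and other protein-coding genes (grey), with 95% Wilson intervals as bars. The KCN share rises from 1 of 19 genes under 10 kb to 14 of 18 genes over 300 kb, and it lies above the other genes in every class except the shortest.

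The share was not higher than in other genes of like length among the shortest genes. Under 10 kb, 1 of 19 KCN genes had a site at both dosages (5.26%), beside 6.23% of the other genes. From 10 to 30 kb the share was 21.7% of 23 KCN genes and 7.37% of the others, and from 30 to 100 kb it was 36.8% of 19 KCN genes and 8.59% of the others. Between 100 and 300 kb it reached 56.2% of 16 KCN genes against 17.9%, and over 300 kb 77.8% of 18 KCN genes against 43.1%. The intervals of KCN genes and other genes were apart in each of the 4 longer classes, and in the shortest they overlapped. For genes over 300 kb they overlapped when the basal list alone was counted (54.8 to 91% against 49.7 to 56.6%) or either list (54.8 to 91% against 57.2 to 63.9%).

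The share of genes with a site varied with the role of the subunit, and no test between roles was made. Voltage-gated pore subunits, which open on depolarisation, had a site at both dosages at 19 of 30 genes (63.3%, 45.5 to 78.1%), where other genes of these lengths had one in 19.7% of cases. Calcium- or sodium-activated pore subunits followed with 5 of 8 genes (62.5%, 30.6 to 86.3%, others 23.7%). This group was set by symbol (KCNMA, KCNN, KCNT and KCNU), and KCNU was placed in it by family name and not by its gating. The 15 two-pore-domain channels, which carry leak currents, had 4 such genes (26.7%, 10.9 to 52%, others 10.2%). The 17 auxiliary subunits and regulators had 5 (29.4%, 13.3 to 53.1%, others 17%), and this interval covers the share of the other genes. Inward rectifiers, which pass current more readily into the cell, had 2 of 15 genes (13.3%, others 11.4%), and the silent modifiers, which form no channel of their own, had 1 of 10 (10%, others 11.8%). In these last 2 groups the share was close to that of other genes at the same lengths, and the small groups have wide intervals.

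**Figure D2:**
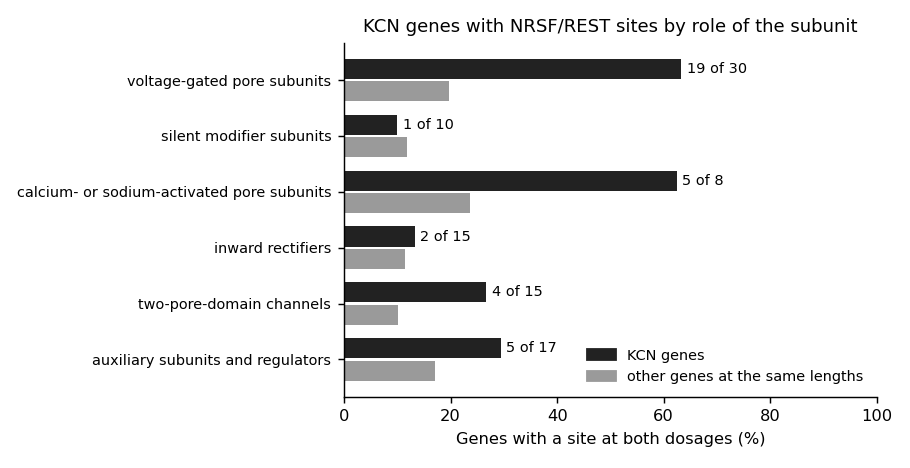
Percentage of KCN genes with an NRSF/REST site at both dosages (horizontal axis) in 6 groups by the role of the subunit (black bars, with the number of genes), and of other protein-coding genes at the same lengths (grey bars). The voltage-gated group (19 of 30) and the calcium- or sodium-activated group (5 of 8) stand highest, and the inward rectifiers and silent modifiers lie near the grey bars.

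Within the voltage-gated group the counts varied by family. KCNC1, KCNC2 and KCNC4, whose channels repolarise fast-spiking neurons, had a site at both dosages (others at the lengths of the KCNC family 12.9%). KCNH genes had one at 7 of 8 members (others of these lengths 25.4%) and KCND genes at 2 of 3 (others 22.4%). Of the 8 KCNA genes, only KCNA2, an axonal delayed rectifier, had a site at both dosages (12.5%, others 7.82%). The other KCNA genes had a site in neither list. KCNA genes are mostly short, with a median length of 6.3 kb against 210 kb for KCNH genes. Outside this group, none of the 5 KCNE auxiliary genes and none of the 4 KCNG silent modifiers had a site at either dosage. Other genes of these lengths had one at both dosages in 9.25% and 10.3% of cases, so that 0 in so few genes is near the background.

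Several of the widest KCN sites were at pore subunits. KCNH4, a channel of the ether-a-go-go type, had a site of 1299 bp at both dosages, in intron 1 and 787 bp past a coding start. KCNH2, which carries the rapid repolarising current of the heart, had a site 5762 bp upstream, 1099 bp wide at the basal and 1249 bp wide at the increased dosage. Both held the consensus without mismatch, as printed above. KCNH1, the founding member of this type, had the most sites of all KCN genes, with 6 at the basal and 5 at the increased dosage. The consensus was present at 4 of the 5 loci that were called at both dosages at KCNH1, and 3 of these lay in intron 10, between 399 and 749 bp wide at either dosage.

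KCNH7 had 5 sites at the basal and 3 at the increased dosage. The site of KCNH7 with the closest match lay 2026 bp upstream, was 599 bp wide at both dosages and held 2 matches to the consensus, the closer with 1 mismatch. In the authors' numbering of sites it stood at number 41 of the basal and 46 of the increased list, before every other KCN site in each. A second shared site of KCNH7, 1073 bp upstream and without the consensus, was 199 bp wide at the basal and 499 bp at the increased dosage.

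KCNC4 and KCNQ5 were the narrower cases among sites with every fixed base, KCNC4 at 349 bp and 399 bp and KCNQ5 at 349 bp in both lists. KCNQ5 encodes a subunit of the M-current, which damps repetitive firing, as does KCNQ3, which had a site with 1 mismatch, 299 bp wide at both dosages. KCNA2 had a site of 749 bp at the basal and 499 bp at the increased dosage.

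Among channels activated by calcium or sodium, KCNN4 and KCNT1 had the widest sites. KCNN4, the intermediate-conductance channel of blood cells, had a site of 1199 bp at the basal and 1149 bp at the increased dosage, 8292 bp upstream, and its midpoint lay within the neighbouring gene LYPD5. KCNT1, a channel opened by intracellular sodium, had a site of 1049 bp and 1249 bp, 164 bp past a coding start. KCNMA1, the large-conductance channel activated by calcium and voltage, had 2 sites at each dosage, each with 1 mismatch. Its intronic site was 649 bp at the basal and 799 bp at the increased dosage, and the site 300 bp upstream was 249 bp wide in both lists. KCNN2 and KCNN3, which are small-conductance channels behind afterhyperpolarisation, each had a shared site with 2 mismatches and are named here after their values were seen.

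In the inward rectifiers the one site with the consensus was at KCNJ6, a G protein-gated subunit of neurons, which was 1249 bp wide at the basal and 1049 bp at the increased dosage. It held 2 matches. KCNJ16, named here after its values were seen, had a shared site of 449 bp and 349 bp without the consensus.

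The two-pore-domain channels KCNK12, KCNK10 and KCNK9 had shared sites with the consensus. KCNK12, a member that carries little current by itself, had a site of 1049 bp and 1099 bp, 490 bp upstream of its start, and another annotated protein-coding gene overlaps this place. KCNK10, a leak channel opened by stretch and lipids, had 3 shared sites, and the one with 1 mismatch was 649 bp wide in both lists and 8427 bp upstream. KCNK9 had every fixed base in intron 1, in a site of 499 bp at the basal and 649 bp at the increased dosage.

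Auxiliary subunits with the consensus included KCNAB2, a cytoplasmic beta subunit of KCNA channels, where the site was 599 bp wide in the basal list and 999 bp in the other. KCNIP1, KCNIP2 and KCNIP4 encode calcium-binding proteins that accompany KCND channels. A shared site with the consensus was present at 3 of the 4 KCNIP genes (75%, others of the same lengths 16.3%). The match had no mismatch at KCNIP4 (649 bp and 749 bp wide) and 1 mismatch at KCNIP2 (299 bp at both). KCNIP1 had 2 sites with 1 mismatch, the one 410 bp past a coding start being 599 bp at the basal and 699 bp at the increased dosage. KCNMB2, a beta subunit of the KCNMA1 channel and likewise named after its values were seen, had a shared site with 2 mismatches.

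**Figure D3:**
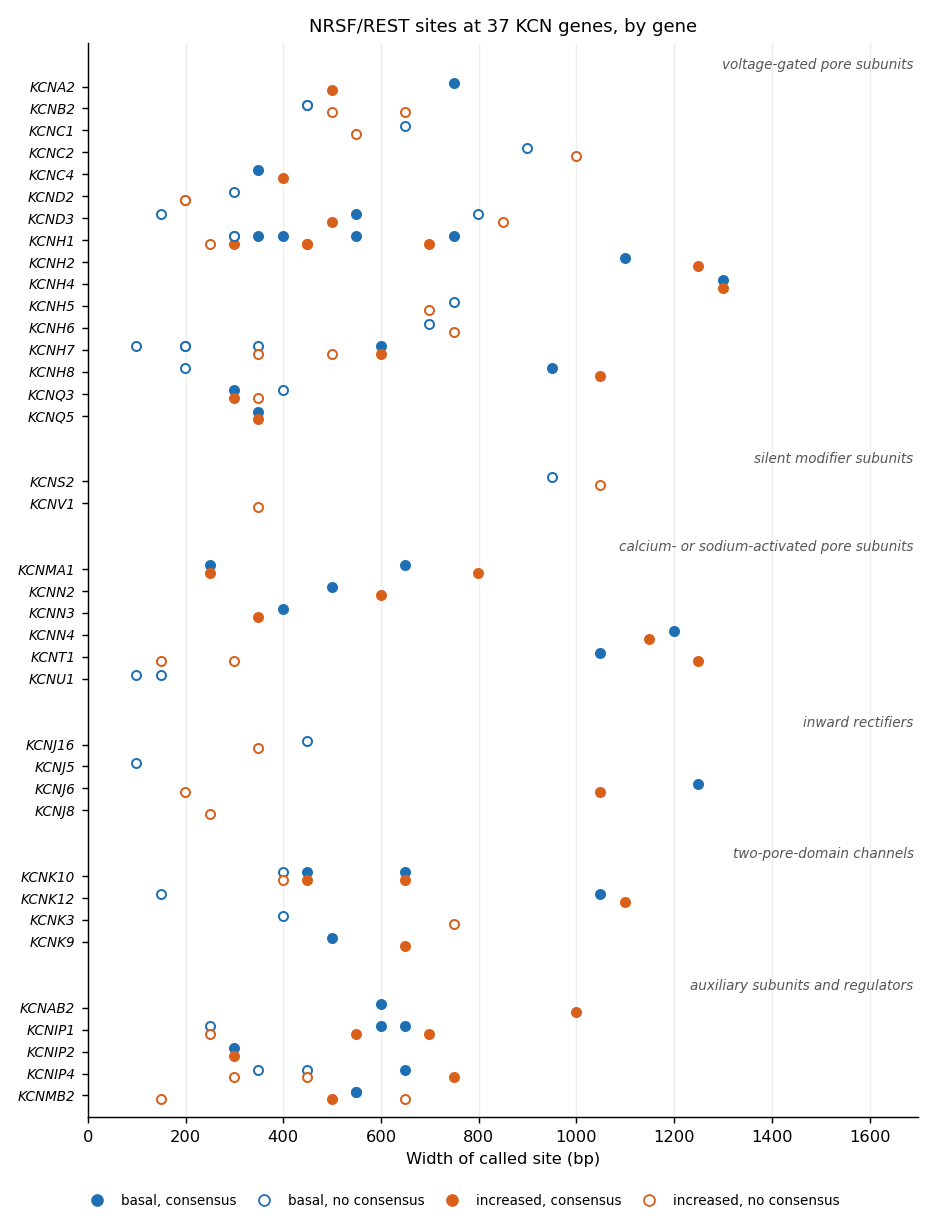
Width in bp (horizontal axis) of each site at 37 of the 40 KCN genes with a site (vertical axis, by role), at the basal (blue) and increased (orange) dosage, filled where the site holds the consensus and open where it does not. The sites called at 1 dosage reach at most 349 bp, and KCNH4 has a site of 1299 bp at both dosages.

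Channel genes with a known part in the adrenal cortex were looked up whatever they held. KCNK3 and KCNK9 encode acid-sensitive leak channels of aldosterone-producing cells, and both had 1 site at each dosage. The KCNK3 site, 135 bp past the start in the untranslated region, was 399 bp wide at the basal and 749 bp at the increased dosage, without the consensus. KCNJ5, an inward rectifier mutated in aldosterone-producing adenomas, had a single site of 99 bp in the basal list, without the consensus and absent from the other list. KCNMA1 had its 2 sites described above. KCNK2, KCNK5, KCNQ1 and KCNE1 had no site in either list.

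When the lists of both dosages were joined, the sites formed 70 loci, of which 54 were called at both dosages, 9 at the basal dosage only and 7 at the increased dosage only. Of the basal sites 85.7% were shared (75 to 92.3%), against 64.2% of the sites elsewhere in the genome (62.9 to 65.5%). In the increased list 88.5% were shared (78.2 to 94.3%), against 67.7% elsewhere (66.4 to 68.9%). The contrast was smaller against other sites in or within 10 kb of protein-coding genes. Of these, 66.9% of the basal (65.2 to 68.5%) and 69.7% of the increased sites (68 to 71.4%) were shared. KCN sites were also wider, with a median of 499 bp in each list. The other sites had 299 bp, and those at protein-coding genes 349 bp. Width and sharing moved together in the whole lists, where shared sites outside KCN genes had a median width of 449 bp and those at 1 dosage 149 bp, and the part of width in the sharing was not tested.

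At the 54 shared loci the widths did not move in 1 direction. The increased dosage had the wider site at 24 loci, the basal dosage at 18, and 12 were equal, with a median difference of 0 bp (increased minus basal, quartiles -50 and 100 bp). In 43 loci the widths lay within 100 bp of each other. Among those that differed by 300 bp or more were KCNAB2, KCNK3 and KCNH7, named here for that difference, and each was wider at the increased dosage. Widths were not paired for shared sites elsewhere, so none of this is shown to be particular to KCN loci. Those sites had a median of 449 bp in each list, with upper quartiles of 649 bp basal and 699 bp increased.

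**Figure D4:**
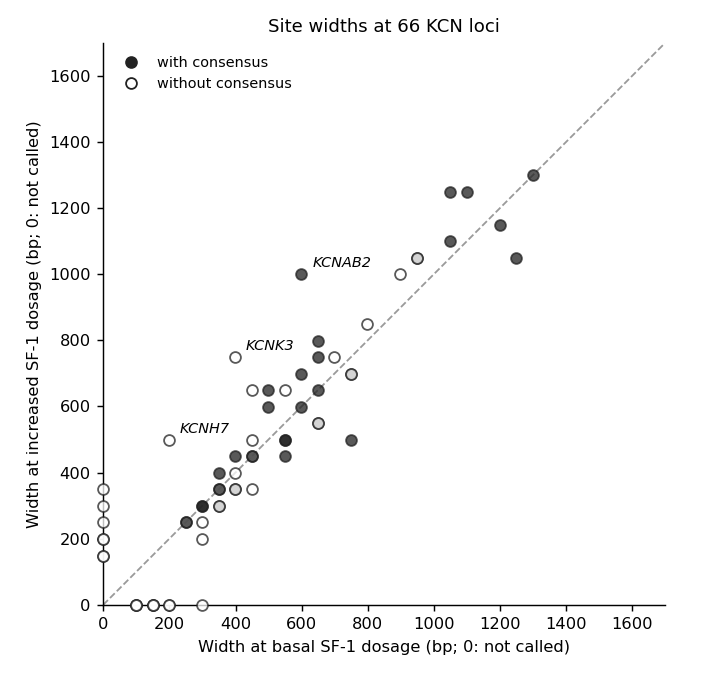
Width in bp of the site at the basal (horizontal axis) and increased (vertical axis) SF-1 dosage for 66 of the 70 KCN loci, filled with and open without the consensus; 0 means not called, and the dashed line marks equal widths. Most shared loci lie near the line, with KCNAB2, KCNK3 and KCNH7 above it.

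None of the loci called at 1 dosage held the consensus, which was also rare in such sites elsewhere (7.59% basal and 6.81% increased). The 9 basal sites were 99 to 299 bp wide and the 7 sites of the increased list 149 to 349 bp. At 4 KCN genes no other site was called, KCNJ5 and KCNU1 in the basal list (2.11% of KCN genes) and KCNJ8 and KCNV1 in the increased list (2.11%). The last 3 are named after their values were seen. Over all protein-coding genes 13.9% had a basal site and 13.6% an increased site, and both figures include the 10.5% with a site at both dosages. The like background for 1 dosage only is what remains of each after the 10.5% is taken away. Both remainders lie within the interval of the KCN share (0.579 to 7.35% in each list). The remaining KCN sites called at 1 dosage lay at genes that also had a shared site. Of the 9 basal ones 4 lay within 2 kb of a shared site (44.4%, 18.9 to 73.3%), at KCNH1, KCNH7, KCNH8 and KCNK12, compared with 7.99% of the 1001 basal-only sites at other coding genes. Of the 7 increased ones 3 did (42.9%, 15.8 to 75%), at KCNMB2, KCNT1 and KCNJ6, compared with 12% of 877. This distance was chosen after the values were seen.

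In the basal list 32 of 63 KCN sites held the consensus (50.8%, 38.8 to 62.7%), and in the increased list 32 of 61 did (52.5%, 40.2 to 64.5%). It was present in 40.5% and 42% of the other sites, and in 44.6% and 45.8% of the other sites at protein-coding genes. In windows of the same widths 10 kb to either side of the KCN sites, 4 of 126 held it for the basal list (3.17%) and 4 of 122 for the increased list (3.28%). Every one of the 32 lay in a shared locus, and elsewhere 1989 of 2132 basal and 1987 of 2097 increased sites with the consensus were likewise shared. At KCN genes 12 had no mismatch, 12 had 1 and 8 had 2. Among shared sites alone the KCN share, 59.3%, was close to the 58.9% and 58.8% of the other shared sites. The higher share over all KCN sites went with their higher sharing between dosages.

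The matches at KCN genes resembled those elsewhere in their less fixed places. Of 28 mismatches in the 32 matches, 10 fell on position 12, and positions 2, 5, 10, 11 and 13 had none. In 1989 matches of other shared basal sites, 34.5% had a mismatch at position 12, close to the 31.2% at KCN genes. The base after the consensus, which the search did not use, was A in 27 of 32 KCN matches (84.4%, 68.2 to 93.1%) and in 69.3% of the others (67.2 to 71.3%). In the sequences printed above it was A in all 12.

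Of the 54 shared loci, 22 lacked the consensus, and at 10 of the 36 KCN genes with a shared site no locus held it. Such genes were not particular to the KCN families. Over all protein-coding genes, 2112 had a site at both dosages and 1323 had a shared site with the consensus. Both parts of the consensus, each with at most 1 mismatch, stood at another distance from 0 to 20 bases in 10 of the 31 basal KCN sites that lacked it (32.3%) and in 10 of 29 in the increased list (34.5%). The same was seen in 24.7% and 24% of other sites lacking the consensus, and in 28.1% and 27.1% of those at protein-coding genes. It was seen in 8.06% and 10.3% of the flanking windows 10 kb away, and in 14.5% and 19% of windows 20 kb away. All 10 KCN sites of this kind lay in shared loci. Among shared sites lacking the consensus the KCN share, 45.5% in each list, was close to the 43.2% and 42% elsewhere. The commonest other distance was 8 bases, in 3 KCN sites of each list, and it was also the commonest elsewhere (5.21% basal and 4.83% increased). A distance of 9 bases, in 2 KCN sites of each list, was singled out after the values were seen. The following site of that kind shows the parts in capitals, in hg19 and in the direction of the consensus.
KCNMB2 (chr3:178402837-178402864, - strand, 9 bases apart): ggagCTGTCCaacactcaaGGTTCTGaa
KCNMB2 had 1 mismatch in the right part in a site of 549 bp and 649 bp.

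The response element of SF-1, searched as CAAGGTCA, CAAGGACA or CAAGGCCA without mismatch in either orientation, was about as frequent in KCN sites as beside them. At the basal dosage 7 of 63 KCN sites had it (11.1%), at the increased dosage 8 of 61 had it (13.1%), and it was found in 11.9% and 12.3% of the windows 10 kb away. At other NRSF/REST sites it was found in 11.4% and 11.5%.

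Most KCN sites lay in introns, which took 46 of 63 (73%) when SF-1 was basal and 44 of 61 (72.1%) when it was increased, while introns make up 83.2% of the gene windows searched. Upstream flanks held 19% and 14.8% of the sites and make up 6.27% of the windows, and downstream flanks of the same extent held none in either list. These classes were not counted for sites at other protein-coding genes, so the placing is not shown to be particular to KCN genes. Among the 32 shared sites with the consensus 5 lay within 1 kb of a coding start (15.6%, 6.86 to 31.8%), at KCNH4, KCNIP1, KCNK12, KCNMA1 and KCNT1. Among the 22 without it there were 7 (31.8%, 16.4 to 52.7%), among them KCNC1, KCNC2, KCNH5, KCNH6, KCNK3 and KCNS2. The intervals overlap, and for other shared basal sites at coding genes the shares were 19.5% with and 28% without the consensus. The 7 sites without it near a start had a median GC content of 71.5% in the basal list, against 42.1% for the 15 farther away. The contrast was alike for shared KCN sites with the consensus (67.8% and 44.6%) and for other shared sites without it at coding genes (62.5% and 46.2%). KCNC1, KCNC2, KCNH5, KCNH6 and KCNS2 are named here for their position.

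**Figure D5:**
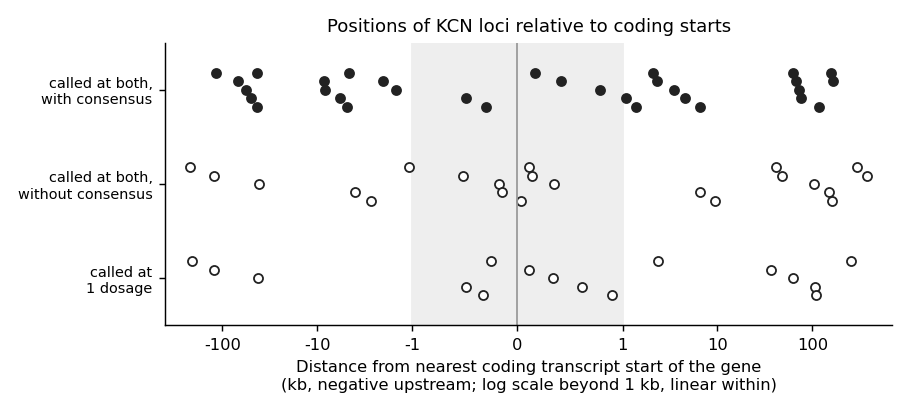
Distance in kb from the nearest coding transcript start of the gene (horizontal axis, negative upstream, linear within 1 kb and logarithmic beyond) for the 70 KCN loci, in rows by whether they were called at both dosages and hold the consensus (filled) or not (open). The grey band marks 1 kb to either side of the start, with 5 of 32, 7 of 22 and 7 of 16 loci inside it from top to bottom.

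The limit of 10 kb left a few sites just outside. The farthest sites inside it were at KCNK10, at 8100 bp and 8050 bp from the gene in the increased and basal list, and at KCNN4, at 7773 bp in both. The nearest outside it was a shared site of KCNIP3, 11726 bp away in the increased and 11776 bp in the basal list, with 2 mismatches, followed by an unshared site at KCNG4 in the increased list at 12114 bp and, in the basal list, a shared site with 1 mismatch at KCNK9 at 15899 bp.

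Partners of these channels and other channel families were counted by the same rule. Of 11 genes for potassium channel partners without the KCN prefix, 5 had a site at both dosages (45.5%, others of the same lengths 18.1%), namely the sulfonylurea receptors ABCC8 and ABCC9, the KCND partners DPP6 and DPP10 and the axonal adhesion gene CNTNAP2. All 4 HCN pacemaker channels had one (others 16.6%), as did 13 of 26 calcium channel genes (50%, others 20.1%) and 5 of 14 sodium channel genes (35.7%, others 14.1%). The intervals of the calcium channels (32.1 to 67.9%) and the sodium channels (16.3 to 61.2%) overlapped that of the KCN genes, and the interval of the HCN genes (51 to 100%) lay above it.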

How the data were processed

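Immunoprecipitated DNA was sequenced in 1 library per SF-1 dosage. Per the labels and the methods, reads were aligned by the authors to hg19 using ELAND, and the submitters' processing notes name CASAVA 1.6. The deposited lists hold sites called in each library, with an order number and a score of 1000 throughout. The caller and its settings are stated for SF-1 sites only. The 2 input libraries were not analysed here. Depth is unknown.

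Sites were assigned to genes, compared by overlap of at least 1 bp and searched for the consensus in the hg19 sequence with Python 3.11.15, numpy 2.4.6 and pysam 0.24.0. Other genes were weighted to the KCN lengths in classes with bounds at 10, 30, 100 and 300 kb. Position used the consensus, or else the site midpoint. The overlap and consensus steps were tested on simulated data. No test between dosages was possible.

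The members, gene lists and tests were chosen with earlier results of these data known. Genes are named where a shared site held the consensus with at most 1 mismatch, for the most or 3 widest sites per list, or from a list of 8 adrenal genes, with exceptions stated. Some members enter the counts only and are not reported here by name. The alternatives changed the gene window, the overlap rule, the mismatches allowed, the flanking windows and the list (widest 50%).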

Additional observations from a re-analysis of the deposited data

How the results depend on the processing

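With 1 library per dosage and no read counts, neither binding strength nor a weak site below the calling threshold could be measured, and the intervals do not cover differences between cultures. Of 40 alternative values for 12 results, 24 stayed within the interval of the reported value or, for counts, within 1.5 times of it. These included all counts of KCN genes with a site, from 35 to 48 at the basal and 35 to 47 at the increased dosage. The share of other genes with a site at KCN lengths (20.5% basal, 19.9% increased) fell to 18.5% and 18.1% with 10 classes of equal gene number, to 17% and 16.4% for the gene body only, to 12.4% and 11.8% for the widest 50% of each list, and to 18.1% and 17.7% with the bounds of the canonical transcript, an alternative chosen after seeing the data. The KCN share was then 2.15 to 2.97 times as high at the basal and 2.2 to 3.13 times at the increased dosage. For the widest 50% against the whole other list, 100% of 48 basal and 97.9% of 48 increased KCN sites were shared. The like share was not computed for the widest sites elsewhere. Shared sites were the wider ones there too, so these values are not shown to be particular to KCN genes. The consensus was present in 19% and 19.7% of KCN sites with no mismatch, in 38.1% and 39.3% with at most 1 and in 65.1% and 65.6% with at most 3, which follows from the number allowed. Gene bounds from another annotation of hg19 were not run. No paired analysis was possible because there is 1 library per dosage.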
